A study of Mus musculus with 18 samples.

Results

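Fibroblast growth factors (FGFs) and their receptors were followed through 18 poly(A) RNA-seq samples of mouse embryonic stem (ES) cells grown as 3D cultures in growth factor-depleted Matrigel. The set was given by name and held 10 of the 49671 genes counted. The 6 ligands were Fgf4, Fgf5, Fgf8, Fgf15, Fgf17 and Fgf10, and the 4 receptors were Fgfr1, Fgfr2, Fgfr3 and Fgfr4. All E14 ES cells (passage 20) had been maintained in 2i/Lif and were then kept in Matrigel for 48 h in N2B27 medium, with 3 samples in each of 4 conditions. These were the solvent DMSO, the GSK3 inhibitor CHIR99021 at 3 µM (CH), CH together with the MEK inhibitor PD0325901 at 0.4 µM (2i), and Fgf2 at 12 ng/ml with Activin A at 20 ng/ml (Fgf2/Activin). The other 6 samples were Esrrb fl/fl ES cells (passage 25) that carry a tamoxifen-inducible Cre and were labelled as derived from Acr-EGFP transgenic mice. They had also been maintained in 2i/Lif and were grown for 24 h in Matrigel with CH. Of these samples, 3 followed exposure to 4OHT before the 3D culture, which deletes Esrrb (Esrrb delta/delta), and 3 had no 4OHT (Esrrb fl/fl). Both groups carried the floxed alleles and the Cre. The controls received no 4OHT, so loss of Esrrb and exposure to 4OHT cannot be told apart. E14 and Esrrb cells also differed in line, passage and hours in Matrigel, so they were not tested against each other.

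FGF ligands bind receptor tyrosine kinases together with heparan sulphate, or with a Klotho protein for the endocrine ligands, and signal through Ras, Raf, MEK and ERK. In ES cells Fgf4 is the main autocrine ligand, and the ERK activity it drives moves the cells out of the naive state. The MEK inhibitor in 2i blocks this cascade below the receptor. Fgf5 is a standard marker of the early post-implantation epiblast, and Fgf8 and Fgf17, members of one subfamily, are known from the gastrulating embryo and the midbrain-hindbrain boundary. Fgfr1 is the main receptor of the epiblast, and Fgfr2 acts in the trophoblast and primitive endoderm.

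The promoters of Fgf4, Fgf5 and Fgfr2 are shown because these genes separated the culture conditions in different ways. Each run holds the 250 bases before and the 50 bases after a transcription start, from RefSeq on GRCm38.p6, written 5′ to 3′ on the strand of the gene. Capitals mark matches to 6 short motifs searched on both strands, none of which contains another. The GC box was searched as GGGCGG and the CCAAT box by the letters of its name. The TATA box was searched as TATAAA. The core bound by ETS factors was searched as CCGGAA. The core bound by TCF/LEF factors was searched as CTTTGA. The Esrrb half-site was searched as AAGGTCA.
Fgf4, chr7:144861136-144861435, + strand: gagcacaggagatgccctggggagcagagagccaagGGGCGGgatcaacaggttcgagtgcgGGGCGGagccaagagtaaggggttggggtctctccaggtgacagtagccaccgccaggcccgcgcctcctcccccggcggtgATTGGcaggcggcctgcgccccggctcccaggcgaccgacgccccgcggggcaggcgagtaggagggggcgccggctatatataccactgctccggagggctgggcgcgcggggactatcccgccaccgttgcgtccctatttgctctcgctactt
Fgf5, chr5:98253934-98254233, + strand: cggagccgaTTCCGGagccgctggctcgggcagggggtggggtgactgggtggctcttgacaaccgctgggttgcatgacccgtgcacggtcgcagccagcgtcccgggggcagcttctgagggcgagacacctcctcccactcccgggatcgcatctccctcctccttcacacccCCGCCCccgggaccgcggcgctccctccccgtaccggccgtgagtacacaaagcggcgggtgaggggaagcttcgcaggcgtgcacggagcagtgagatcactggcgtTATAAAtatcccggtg
Fgfr2, chr7:130266759-130267058, − strand: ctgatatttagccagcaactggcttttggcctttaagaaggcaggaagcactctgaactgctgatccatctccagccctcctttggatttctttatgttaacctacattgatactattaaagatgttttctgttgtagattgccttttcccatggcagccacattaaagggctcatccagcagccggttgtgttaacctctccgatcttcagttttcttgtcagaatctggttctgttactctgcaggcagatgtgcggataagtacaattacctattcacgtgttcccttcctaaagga

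The Fgf4 window held 2 GC boxes and 1 CCAAT box on the other strand, with 69.7% G and C and 28 CG dinucleotides. The Fgf5 window held 1 ETS core and 1 GC box, both on the other strand, and 1 TATA box that lies 34 bases past the annotated start. It had 68.3% G and C and 29 CG dinucleotides. The Fgfr2 window held 0 of the 6 motifs and differed in composition, with 43.7% G and C and 4 CG dinucleotides. The median over all 32851 promoters of this length was 52.7% and 7 CG dinucleotides. A GC box was found in 35.7% of them, a CCAAT box in 37.4%, an ETS core in 14.9%, a TCF/LEF core in 16.0%, a TATA box in 13.6% and an Esrrb half-site in 4.72%. No TCF/LEF core or Esrrb half-site was found in any of the 3 windows. The match of letters is a description only. In the GENCODE annotation of GRCm38 Fgf4 spans chr7:144847367-144865243, Fgf5 spans chr5:98254184-98277030, and Fgfr2, with 27 transcripts, spans chr7:130162451-133123350. The Fgf4 and Fgfr2 starts shown therefore lie inside the annotated spans.

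Counted reads ranged from 25388139 to 37158661 in the E14 samples and from 19915222 to 20140699 in the Esrrb samples. Levels are given as CPM, read counts scaled to library size by TMM, with the 12 E14 samples and the 6 Esrrb samples scaled apart. A gene was called changed at an adjusted p under 0.01 by edgeR's quasi-likelihood test, provided that the log2 fold change exceeded 1 in either direction. The study's methods say of its experiments in general that they were repeated independently, but neither they nor the labels say so of these replicates. The p-values therefore measure only the spread between these samples, which may be technical. The 8 ES cell marker genes were all detected in each group, with summed levels between 2614 and 4572 CPM. The 10 markers of primitive and visceral endoderm summed to between 3.30 and 10.7 CPM, and Afp and Ttr did not exceed 3 counts in any sample. Replicate 1 stood apart in all 6 groups, with a chi-square per gene of 11.8 to 65.9 against the other replicates of its group, where replicates 2 and 3 gave 1.46 to 8.57. In DMSO it had 67.9 CPM of the naive factor Nanog against 5.92 and 2.78 in replicates 2 and 3, and in Fgf2/Activin 67.2 against 32.7 and 32.7. Esrrb itself had 1211, 1333 and 1250 counts after 4OHT and 2680, 2146 and 2109 without, a count over the whole gene that includes any exons outside the floxed stretch. In bulk RNA, fewer cells that make a transcript and less transcript per cell cannot be told apart.

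Fgf4 was expressed in every condition and had its lowest E14 level in CH. Its level was 115, 136 and 97.4 CPM in DMSO and 47.8, 65.6 and 72.9 in CH. In 2i it was 168, 153 and 156 CPM, and in Fgf2/Activin it was 154, 178 and 163. All CH samples lay below all DMSO samples, and all 2i and Fgf2/Activin samples lay above both, while the ranges of 2i and Fgf2/Activin overlapped. Adding the MEK inhibitor to CH raised Fgf4 with a log2 fold change of 1.36 (SE 0.15, adjusted p = 0.000629 by edgeR). Between CH and DMSO the log2 fold change was -0.90 (SE 0.15, adjusted p = 0.00068 by edgeR), short of the minimum fold for a call. It passed that minimum without CH replicate 3, at -1.02, and without DMSO replicate 3, at -1.01. Between 2i and Fgf2/Activin the difference was -0.05 (SE 0.15, adjusted p = 0.783 by edgeR). Among the Esrrb cells, all in CH, Fgf4 was 209, 187 and 182 CPM in Esrrb fl/fl and 38.6, 45.7 and 37.1 in Esrrb delta/delta. These groups did not overlap, and Fgf4 fell by 2.25 on the log2 scale (SE 0.09, adjusted p = 1.15e-06 by edgeR).

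Fgf5 was high in DMSO and Fgf2/Activin and close to absent in both media that hold CH. It had 27.5, 54.2 and 58.7 CPM in DMSO and 130, 113 and 115 in Fgf2/Activin. In CH it had 0, 17 and 13 counts, up to 0.556 CPM, and in 2i 0, 9 and 5 counts, up to 0.265 CPM. CH replicate 1 and 2i replicate 1 were the samples at 0. The ranges of CH and 2i overlapped, and the other neighbours in this order were apart. Fgf5 fell by 7.03 from DMSO to CH (log2, SE 0.57, adjusted p = 4.18e-06 by edgeR) and 2i differed from Fgf2/Activin by a log2 fold change of -9.62 (SE 0.64, adjusted p = 5.64e-07 by edgeR). Fgf2/Activin was above DMSO in all samples, with a log2 fold change of 1.35 (SE 0.38, adjusted p = 0.0766 by edgeR) that was not called. Blocking on replicate number gave 1.43 and an adjusted p of 0.00423 by edgeR, and the difference was called. Replicate 1 had the most Nanog in both groups, and it had the least Fgf5 of the DMSO samples but the most of the Fgf2/Activin samples. Without DMSO replicate 1 the log2 fold change was 1.08 (adjusted p = 0.131 by edgeR). Within the CH-treated Esrrb cells Fgf5 was 0.797, 3.69 and 3.52 CPM in Esrrb fl/fl and 7.88, 22.2 and 19.6 in Esrrb delta/delta. Every Esrrb delta/delta sample was higher, and Fgf5 rose by a log2 fold change of 2.62 (SE 0.50, adjusted p = 0.00196 by edgeR). Of 8 neural markers, Nes was lower in CH than in DMSO (log2 fold change -1.94) and higher in Esrrb delta/delta than in Esrrb fl/fl (2.74), where Pax6 (-1.70) and Tubb3 (-1.56) were lower. The 8 genes summed to 118 to 174 CPM in DMSO, 130 to 135 in Fgf2/Activin, 23.0 to 49.1 in CH and up to 49.7 in 2i. They summed to 48.7 to 51.8 CPM in Esrrb fl/fl and 214 to 216 in Esrrb delta/delta, mostly from Nes, and Pax3, Zic1 and Neurog2 did not exceed 3 counts in 2i or Esrrb fl/fl. Their part in the Fgf5 values was not tested.

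Fgf8 appeared in CH and in Fgf2/Activin and stayed at a few counts in DMSO and 2i. It had 3, 4 and 9 counts in DMSO, 293, 144 and 70 in CH, 68, 165 and 127 in Fgf2/Activin and 4, 7 and 7 in 2i. The CH samples spread over 2.80 to 9.98 CPM and the Fgf2/Activin samples over 2.05 to 5.42 CPM. These 2 ranges overlapped, as did those of 2i and DMSO. Fgf8 rose from DMSO to CH with a log2 fold change of 5.04 (SE 0.65, adjusted p = 0.000107 by edgeR), and it fell by 4.92 from CH to 2i (SE 0.64, adjusted p = 0.00121 by edgeR). Between the Esrrb groups Fgf8 had the largest fold change of the 8 members tested. It had 0, 3 and 8 counts in Esrrb fl/fl and 153, 240 and 213 in Esrrb delta/delta, a log2 fold change of 5.62 (SE 0.45, adjusted p = 2.03e-05 by edgeR). E14 cells in CH had 5.83 ± 3.72 CPM and Esrrb fl/fl cells in CH 0.189 ± 0.209 CPM (SD, n = 3), on separate scalings and without a test.

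Fgf17, of the same subfamily as Fgf8, was high in both media that hold CH. Its level was 0.640, 0.751 and 0.771 CPM in DMSO, 6.68, 7.10 and 7.24 in CH, 7.94, 5.96 and 6.44 in 2i, and 2.47, 2.43 and 1.49 in Fgf2/Activin. CH and 2i overlapped, and Fgf2/Activin lay between them and DMSO without overlap. The log2 fold change from DMSO to CH was 3.28 (SE 0.23, adjusted p = 1.49e-06 by edgeR), and 2i exceeded Fgf2/Activin by 1.66 (SE 0.21, adjusted p = 6.09e-05 by edgeR). Between 2i and CH it was -0.05 (SE 0.20, adjusted p = 0.947 by edgeR). After loss of Esrrb Fgf17 did not overlap its controls. It was 1.43, 0.871 and 1.45 CPM in Esrrb fl/fl and 2.38, 3.78 and 3.97 in Esrrb delta/delta. Fgf17 rose by a log2 fold change of 1.43 (SE 0.28, adjusted p = 0.00222 by edgeR), a call that was lost without Esrrb delta/delta replicate 2 (1.34, adjusted p = 0.0102 by edgeR) or replicate 3 (1.30, adjusted p = 0.0108 by edgeR). The neighbouring gene Dmtn, 154 bases away on chromosome 14 on the same strand, moved with Fgf17 among the E14 conditions. Dmtn had 13.3 ± 2.66 CPM in DMSO, 99.5 ± 2.90 in CH, 143 ± 4.78 in 2i and 25.2 ± 3.98 in Fgf2/Activin (SD, n = 3). Between Esrrb fl/fl and Esrrb delta/delta its mean went the other way, from 25.5 ± 6.83 to 15.6 ± 3.53 CPM with a log2 fold change of -0.71 that was not called. Its part in the Fgf17 counts was not tested.

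Fgf15, the mouse counterpart of human FGF19 and an endocrine ligand that needs a Klotho co-receptor, had its highest level in Fgf2/Activin. It had 1239, 1106 and 965 counts there, against 23, 123 and 36 in DMSO, 1, 17 and 6 in CH and 0, 5 and 3 in 2i. As CPM these were 33.5 to 37.3 in Fgf2/Activin and 0.614 to 3.85 in DMSO. The DMSO samples spread widely but lay above all CH and 2i samples. Between 2i and Fgf2/Activin Fgf15 differed by a log2 fold change of -8.66 (SE 0.88, adjusted p = 1.31e-05 by edgeR). From DMSO to CH it was -2.77 (SE 0.77, adjusted p = 0.0129 by edgeR), which was not called. Under the replicate block it was -2.71 and called (adjusted p = 0.00347 by edgeR), as it was without DMSO replicate 1, at -3.22. The Esrrb cells had 6, 7 and 18 counts in Esrrb fl/fl and 5, 17 and 12 in Esrrb delta/delta, which overlapped. Exons of antisense genes cover 25.7% of the Fgf15 exon length. Counting was without strand, so reads of these genes cannot be told apart from those of Fgf15 there. The larger one, Gm26793, had 33, 38 and 27 counts in Fgf2/Activin and at most 5 in any other sample.

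Fgf10, a mesenchymal ligand that signals to the epithelial form of Fgfr2, had between 0 and 9 counts in every one of the 18 samples and was not tested. Its exons overlap an antisense gene over 2.67% of their length.

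**Figure D1:**
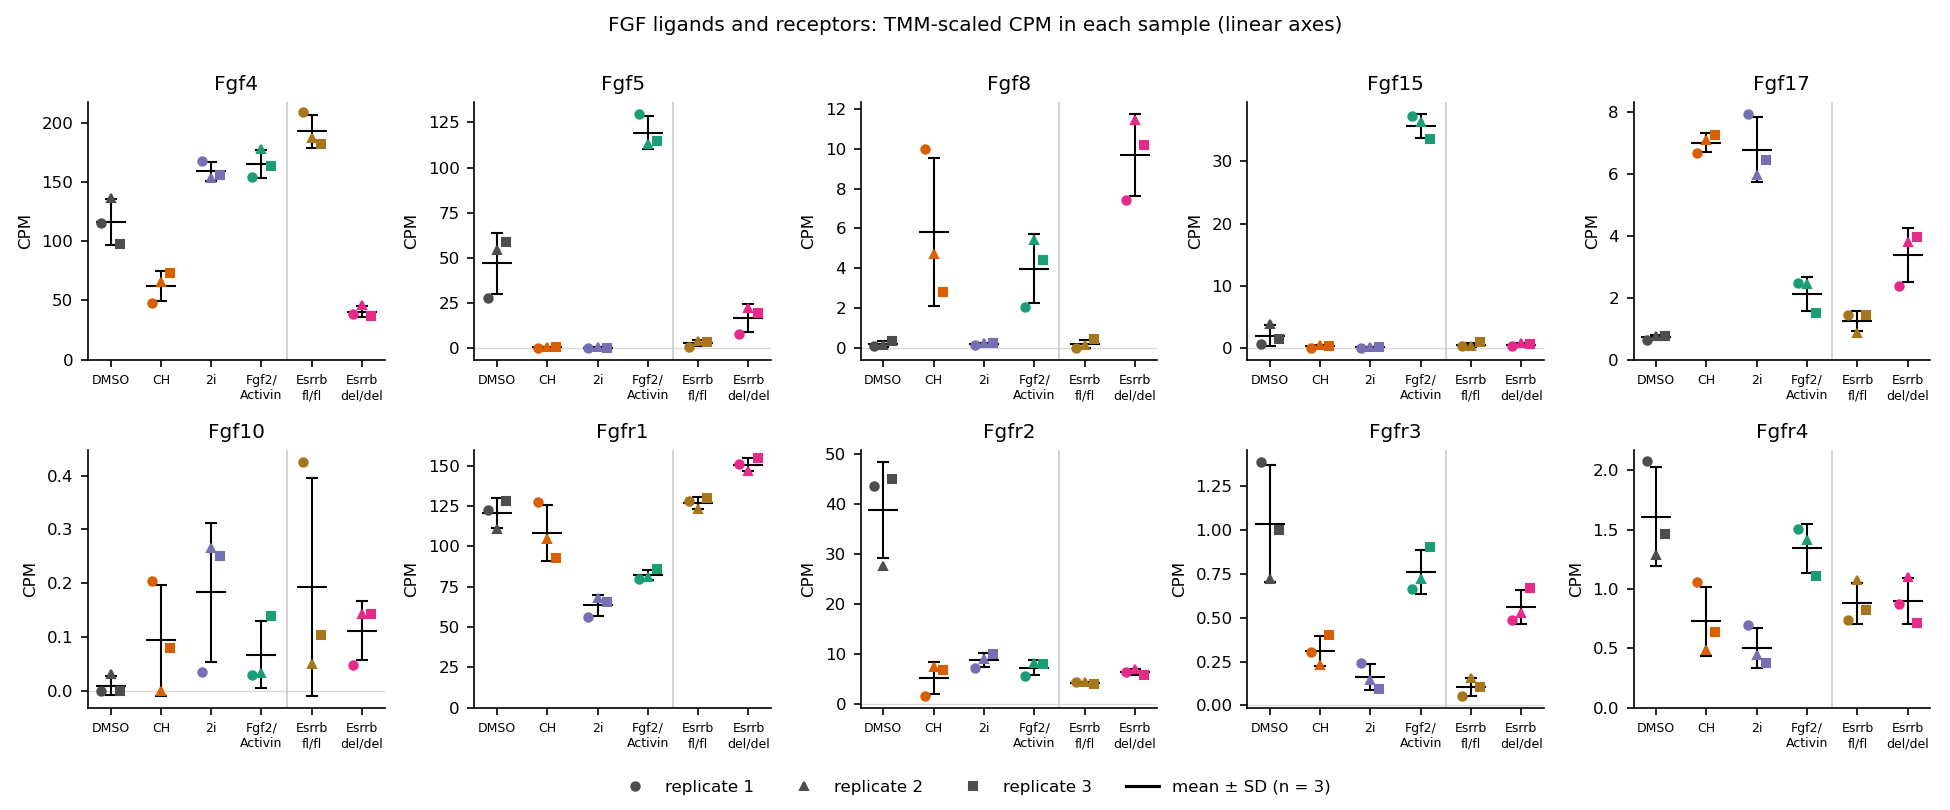
TMM-scaled CPM (linear axes, each panel with its own scale) of the 6 ligands and 4 receptors in each sample, by group; symbols give the replicate number and bars the mean ± SD of 3 samples, and del/del stands for Esrrb delta/delta. Fgf4 is lowest in CH among the E14 cells, Fgf5 and Fgf15 are highest in Fgf2/Activin, and Fgfr2 is highest in DMSO.

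Fgfr1, the main receptor of the epiblast, had the highest CPM per exon length of the 4 receptors in all 6 groups. It had 123, 111 and 128 CPM in DMSO, 128, 104 and 93.1 in CH, 79.9, 81.1 and 85.8 in Fgf2/Activin and 56.3, 68.2 and 65.7 in 2i. DMSO and CH overlapped, Fgf2/Activin lay below both, and 2i lay lowest with no overlap. Its differences stayed under the minimum fold in all 5 comparisons. Between 2i and CH the log2 fold change was -0.77 (SE 0.12, adjusted p = 0.00248 by edgeR). Fgfr1 was at 128, 123 and 130 CPM in Esrrb fl/fl and 151, 147 and 154 in Esrrb delta/delta. These groups did not overlap, with a log2 fold change of 0.25 (SE 0.05, adjusted p = 0.00201 by edgeR).

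Fgfr2 was high in DMSO only, among the E14 conditions. It had 43.6, 27.7 and 44.9 CPM in DMSO, 1.67, 7.42 and 6.88 in CH, 5.59 to 8.31 in Fgf2/Activin and 7.24, 9.14 and 10.1 in 2i. Every DMSO sample was above every other E14 sample, and the ranges of neighbouring conditions below it overlapped. CH replicate 1 was the lowest. The log2 fold change was -2.86 from DMSO to CH (SE 0.44, adjusted p = 0.000373 by edgeR). It was -2.41 from DMSO to Fgf2/Activin (SE 0.43, adjusted p = 0.00904 by edgeR). Between 2i and CH it was 0.73 (SE 0.42, adjusted p = 0.400 by edgeR). The Esrrb fl/fl cells had 4.41, 4.41 and 4.04 CPM and the Esrrb delta/delta cells 6.42, 6.99 and 5.93. These did not overlap, and the log2 fold change of 0.59 (SE 0.13, adjusted p = 0.00505 by edgeR) was under the minimum fold. The list of endoderm markers, whose cell type is known for Fgfr2, summed to 9.23 to 10.7 CPM in DMSO and 3.30 to 6.64 in the other E14 conditions. Its genes did not move together. Dab2, the most abundant in DMSO, and Sox7 were lower in CH than in DMSO (log2 fold changes -2.13 and -2.51) while Hnf4a (3.89) and Foxa2 (1.59) were higher. The 8 trophoblast markers summed to 24.1 to 48.9 CPM in DMSO and 82.0 to 129 in CH, with Cdx2 (9.49) and Tfap2c (2.22) higher and Ascl2 (-1.27) lower in CH. Their part in the Fgfr2 values was not tested. Gene counts do not separate the IIIb and IIIc forms of the receptors, which bind different ligands. Exons of Ctbp2 on the same strand overlap 3.04% of the Fgfr2 exon length, and reads of the 2 genes cannot be told apart there. Ctbp2 had mean levels between 187 CPM (2i) and 326 CPM (DMSO) in the E14 conditions, and its part in the Fgfr2 counts was not tested.

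Fgfr3 and Fgfr4, the other receptors of the family, had few counts and their lowest E14 levels in CH and 2i. Fgfr3 had 52, 23 and 26 counts in DMSO, 9, 7 and 10 in CH, 22, 22 and 26 in Fgf2/Activin and 7, 5 and 3 in 2i. It fell by 1.74 from DMSO to CH on the log2 scale (SE 0.36, adjusted p = 0.0027 by edgeR). This call was lost without DMSO replicate 1 (-1.46, adjusted p = 0.0101 by edgeR) or CH replicate 2 (-1.55, adjusted p = 0.0156 by edgeR). Fgfr3 differed between 2i and Fgf2/Activin by a log2 fold change of -2.23 (SE 0.40, adjusted p = 0.000741 by edgeR). It had 1, 3 and 2 counts in Esrrb fl/fl and 10, 11 and 14 in Esrrb delta/delta, too few for the filter on low counts. The ratio of the summed counts was 5.82, with an exact 95% interval of 2.42 to 16.9 that covers counting error only. Without the filter the log2 fold change was 2.36 (SE 0.52, adjusted p = 0.0019 by edgeR) and was called, while DESeq2 gave 2.42 (adjusted p = 0.0138) and no call. An exon of G630022F23Rik on the opposite strand covers 13.9% of the Fgfr3 exon length, and reads of the 2 genes cannot be told apart there.

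Fgfr4 had 78, 41 and 38 counts in DMSO, 31, 15 and 16 in CH, 50, 43 and 32 in Fgf2/Activin and 20, 15 and 12 in 2i. Its levels in DMSO and Fgf2/Activin overlapped, as did those in CH and 2i, and the 2 pairs were apart. From DMSO to CH its log2 fold change was -1.14 (SE 0.34, adjusted p = 0.0176 by edgeR), not called. With the block it was -1.15 and called (adjusted p = 0.00147 by edgeR), and without CH replicate 1 it was -1.52 and called (adjusted p = 0.00585 by edgeR). The log2 fold change of Fgfr4 between 2i and Fgf2/Activin was -1.42 (SE 0.35, adjusted p = 0.00545 by edgeR). That call was lost without Fgf2/Activin replicate 1 (-1.32) or 2 (-1.38) and without 2i replicate 2 (-1.32) or 3 (-1.23), with adjusted p up to 0.0281 by edgeR. The Esrrb groups overlapped, at 0.744 to 1.08 CPM in Esrrb fl/fl and 0.717 to 1.10 in Esrrb delta/delta.

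Per comparison, the count of members called was read against all genes tested. Between CH and DMSO, 2 of the 9 members tested were higher (Fgf8 and Fgf17) and 3 lower (Fgf5, Fgfr2 and Fgfr3), where 17.7% of 16413 genes were called, 7.51% higher and 10.2% lower. The groups did not overlap for 8 of the 9, against 49.7% of all genes. With the block 7 members were called, where 22% of all genes were called. The median log2 fold change of the 9 members was -1.14, beside -0.0022 for all genes. Between 2i and CH, Fgf4 was higher and Fgf8 lower, 2 of 9 where 1.99% of genes were called, 0.317% higher and 1.67% lower, and 3 of 9 did not overlap against 25.8%. Between Fgf2/Activin and DMSO 3 of 9 were higher (Fgf8, Fgf15 and Fgf17) and 1 lower (Fgfr2), where 1.25% of genes were called, 0.902% higher and 0.347% lower, and 7 of 9 did not overlap against 24.3%. Between 2i and Fgf2/Activin 1 was higher (Fgf17) and 5 lower (Fgf5, Fgf8, Fgf15, Fgfr3 and Fgfr4), where 23.5% of genes were called, 9.13% higher and 14.4% lower, and 7 of 9 did not overlap against 63.1%. Between Esrrb delta/delta and Esrrb fl/fl 3 of 8 members tested were higher (Fgf5, Fgf8 and Fgf17) and 1 lower (Fgf4). Over all 14893 genes tested 16.7% were called, 12.8% higher and 3.87% lower. Of the 10 members 7 did not overlap, including the untested Fgfr3, against 65.9% of the genes tested. Fgf15 and Fgfr4 were the tested members that overlapped. The CH, DMSO, 2i and Fgf2/Activin samples each serve in 2 of these comparisons, so the comparisons are not independent.

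Each of the 4 calls between Fgf2/Activin and DMSO was lost without at least 4 of the 6 samples, taken 1 at a time. Fgf8 rose with a log2 fold change of 4.48 (SE 0.64, adjusted p = 0.0025 by edgeR). It lost its call without DMSO replicate 1 (4.09) or 2 (4.29) and without Fgf2/Activin replicate 2 (4.18) or 3 (4.39). Fgf15 rose by 4.20 (SE 0.64, adjusted p = 0.00331 by edgeR) and lost its call without DMSO replicate 3 (4.02) and without Fgf2/Activin replicate 1 (4.17), 2 (4.18) or 3 (4.24). Fgf17 rose by 1.57 (SE 0.23, adjusted p = 0.00259 by edgeR) and lost its call without DMSO replicate 1 (1.48), 2 (1.60) or 3 (1.62) and without Fgf2/Activin replicate 1 (1.45) or 2 (1.46). Fgfr2 lost its call without any 1 of the 6 samples, at log2 fold changes between -2.60 and -2.24. All 4 kept their direction, with adjusted p up to 0.0437 by edgeR. Without DMSO replicate 1 only Fgf15 was called (3.75, adjusted p = 0.00456 by edgeR). With replicate 1 left out of all groups together, 2 members were called between 2i and CH and 5 between Fgf2/Activin and DMSO. Calls over the whole table also rose in this setting in both comparisons, as given at the end. These counts are therefore not read as particular to the members.

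**Figure D2:**
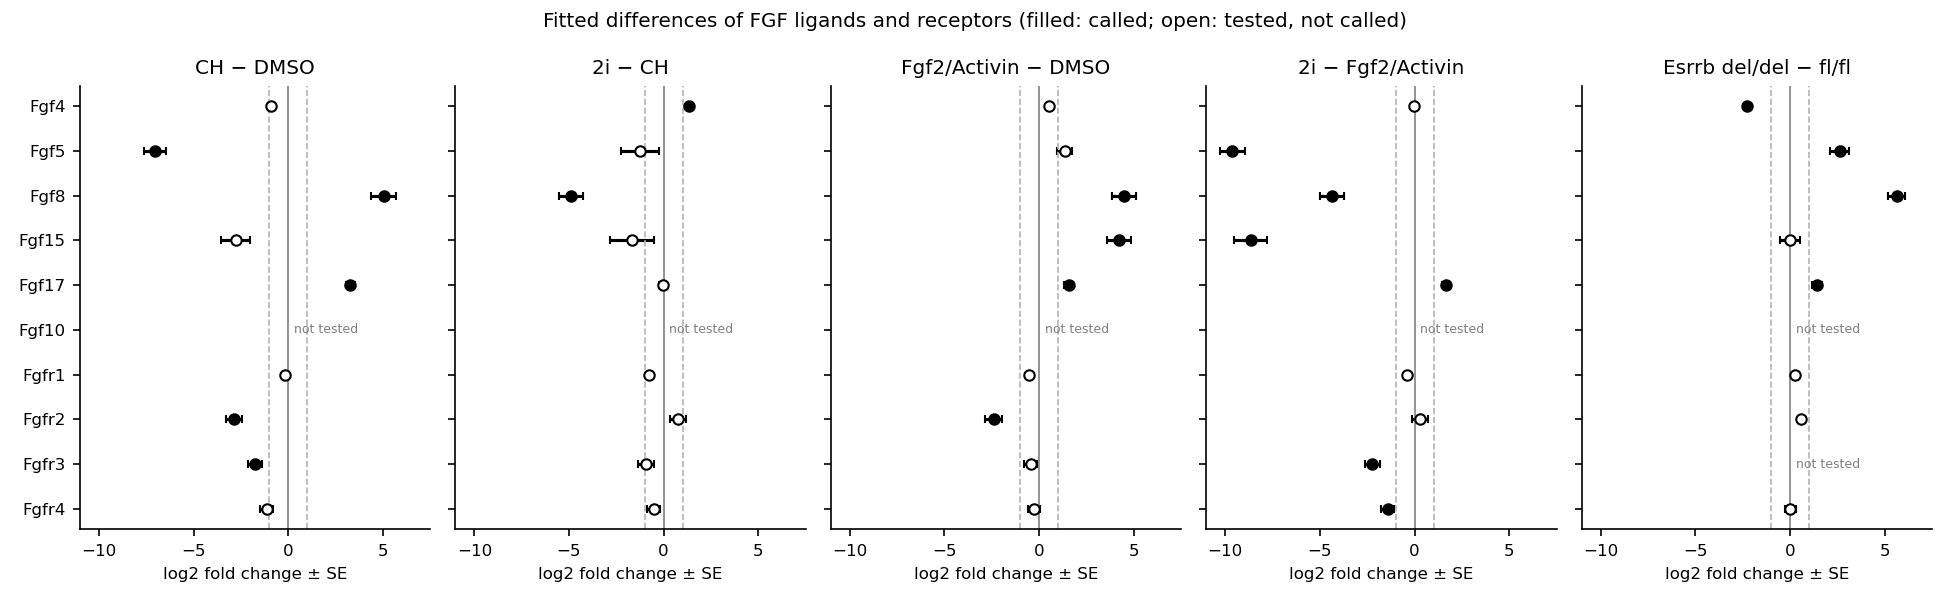
Fitted log2 fold change ± SE of each member in the 5 comparisons (first group minus second, linear log2 axis); filled points passed the test and the minimum fold (dashed lines), open points did not, and del/del stands for Esrrb delta/delta. Fgf8 is higher in CH than in DMSO, lower in 2i than in CH, and higher in Esrrb delta/delta than in Esrrb fl/fl cells.

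To compare levels between genes, CPM was divided by the length of each gene's exons. On this scale, CPM per kilobase, Fgf4 made up most of the RNA of the 6 ligands in DMSO, CH, 2i and Esrrb fl/fl. Its share was 92.1% ± 0.46 in 2i and 96.5% ± 1.40 in Esrrb fl/fl, and it was 65.1% ± 10.2 in DMSO and 68.6% ± 10.6 in CH (SD, n = 3). Fgf5 held 32.8% ± 9.75 in DMSO, and in CH Fgf8 held 15.8% ± 10.9 and Fgf17 14.7% ± 0.23 (SD, n = 3). In Fgf2/Activin Fgf4 held 44.8% ± 2.71, beside 41.4% ± 3.41 for Fgf5 and 10.1% ± 0.40 for Fgf15 (SD, n = 3). The shares of Fgf4 (41.8% to 47.1%) and Fgf5 (38.3% to 45.0%) overlapped there. With the longest transcript as the length, Fgf15 held 15.6% ± 0.62 there (SD, n = 3). The summed level of the 6 ligands was 115 ± 3.05 CPM per kilobase in Fgf2/Activin, 56.3 ± 9.27 in DMSO, 54.0 ± 2.89 in 2i and 28.2 ± 1.60 in CH (SD, n = 3). In Esrrb delta/delta cells Fgf4 held 45.2% ± 8.04, Fgf8 25.1% ± 0.42 and Fgf5 22.2% ± 6.94 of a sum of 28.7 ± 6.02 CPM per kilobase, beside a sum of 62.4 ± 3.67 in Esrrb fl/fl (SD, n = 3). Of the 4 receptors, Fgfr1 held 74.0% ± 3.59 in DMSO, where Fgfr2 held 22.4% ± 3.21 (SD, n = 3). In the other E14 conditions Fgfr1 held between 86.3% and 93.3%, and over the other 5 groups Fgfr2 held between 3.07% and 11.5%. Using the longest transcript as the length moved 22 of 60 levels by more than the spread between replicates.

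**Figure D3:**
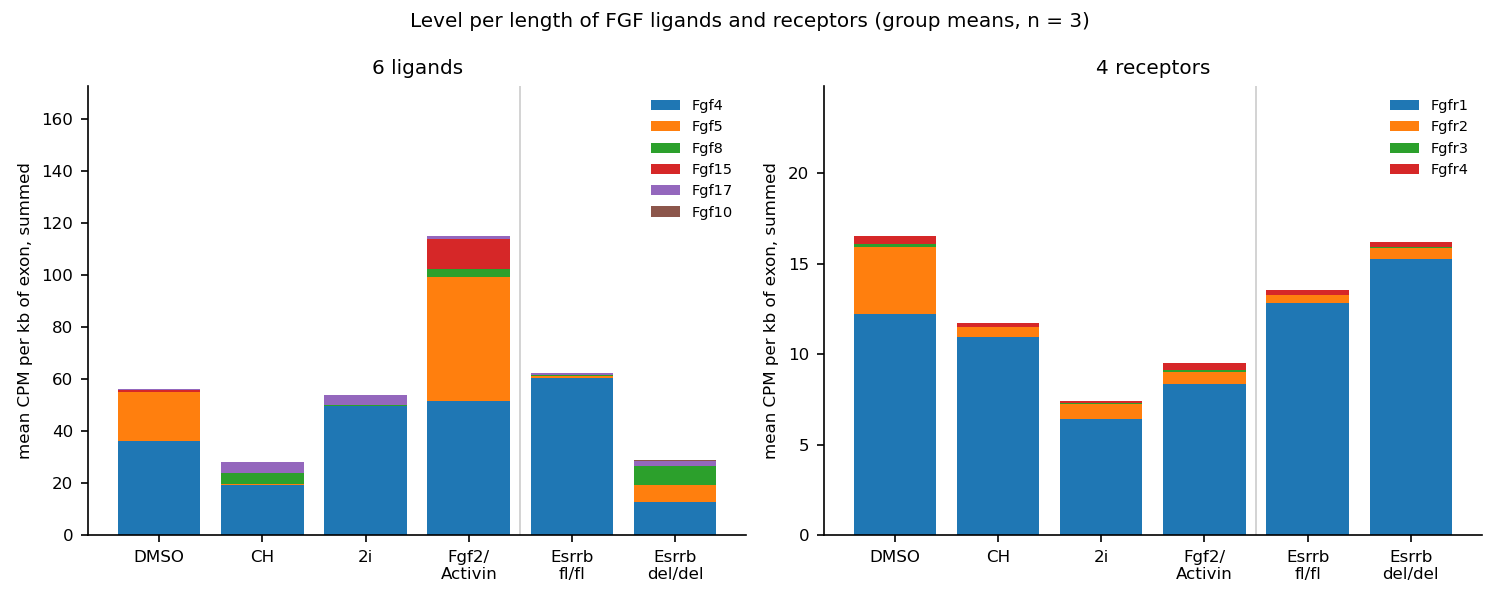
Mean CPM per kilobase of exon (3 samples per group), stacked over the 6 ligands (left) and the 4 receptors (right), on linear axes from 0 with a different scale in each panel; del/del stands for Esrrb delta/delta. By group mean Fgf4 is the largest ligand part in each group, though in Fgf2/Activin the shares of Fgf4 and Fgf5 overlap between samples. Fgf4 is joined by Fgf5 in DMSO, by Fgf8 and Fgf17 in CH, by Fgf5 and Fgf15 in Fgf2/Activin and by Fgf5 and Fgf8 in Esrrb delta/delta. Fgfr1 is the largest receptor part throughout.

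The other 16 FGF genes were mostly scarce, and 9 were tested in the E14 cells. Between CH and DMSO 4 were lower, Fgf9, Fgf11, Fgf13 and Fgf14, and the same 4 symbols were lower in 2i than in Fgf2/Activin. Of all genes 10.2% were called lower in the first comparison and 14.4% in the second. Fgf11, of the intracellular group that does not signal through FGF receptors, went from 18.7 ± 4.78 CPM in DMSO to 4.63 ± 0.811 in CH (SD, n = 3), with a log2 fold change of -2.02 (SE 0.21, adjusted p = 2.58e-05 by edgeR). Fgf13, of the same group, went from 10.3 ± 0.668 to 4.11 ± 0.200 CPM (SD, n = 3). Between 2i and CH edgeR called 0 of 9 (2 at an unadjusted p under 0.05, 1 lower by DESeq2), and between Fgf2/Activin and DMSO it called 0 (0 and 0). Of all genes 1.99% and 1.25% were called in these comparisons, in that order. Of 4 tested in the Esrrb cells 1 was called, where 16.7% of all genes were called. This was Fgf18, which belongs to the subfamily of Fgf8 and Fgf17, at 0.917 ± 0.387 CPM in Esrrb delta/delta and 0.260 ± 0.0474 in Esrrb fl/fl (SD, n = 3). Its log2 fold change was 1.79 (SE 0.41, adjusted p = 0.00532 by edgeR), and DESeq2 did not call it. Endogenous Fgf2 was between 0.251 and 0.803 CPM on average in the 6 groups.

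Of 18 co-receptors, binding proteins and decoys, which act beside the receptors, 11 were called between 2i and Fgf2/Activin, 4 of them higher in 2i, where 23.5% of all genes were called. In CH against DMSO 1 was higher (Flrt3) and 4 lower (Flrt1, Fgfbp3, Sdc3 and Gpc1), where 17.7% of all genes were called, and the other 13 did not pass. Between 2i and CH edgeR called 0 (3 at an unadjusted p under 0.05, 0 by DESeq2), and between Fgf2/Activin and DMSO it called 0 (5 at an unadjusted p under 0.05, 2 lower by DESeq2). Of all genes 1.99% and 1.25% were called in these comparisons, in that order. After loss of Esrrb 6 of 15 tested were higher and 1, Gpc4, was lower, where 16.7% of all genes were called. The heparan sulphate proteoglycan Gpc1 was 46.3 ± 4.66 CPM in DMSO and 18.2 ± 1.31 in CH, and 16.8 ± 3.47 in Esrrb fl/fl and 40.0 ± 5.04 in Esrrb delta/delta (SD, n = 3). It was lower in CH by a log2 fold change of -1.35 and higher after loss of Esrrb by 1.25 (adjusted p = 8.18e-05 and 0.000189 by edgeR). Of 13 enzymes of heparan sulphate synthesis, the sulphotransferase Hs6st2 was the single call in CH against DMSO (1.58, adjusted p = 0.000132 by edgeR) and in 2i against CH (-2.71, adjusted p = 0.000103 by edgeR). Between 2i and Fgf2/Activin Sulf2 was higher and Hs3st1 and Hs6st2 were lower, after loss of Esrrb Ndst2 was higher, and between Fgf2/Activin and DMSO edgeR called 0 of 13 (4 at an unadjusted p under 0.05, 0 by DESeq2). Of 22 genes that carry the signal from receptor to ERK, Sos2 and Hras were lower in 2i than in Fgf2/Activin and Sos2 was higher in Esrrb delta/delta. In the other 3 comparisons edgeR called 0 of the 22 and DESeq2 called 0, and between 4 and 8 had an unadjusted p under 0.05. The median log2 fold change of these 22 genes lay between -0.12 and 0.04 over the 5 comparisons, beside -0.0213 to 0.00215 for all genes.

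Feedback and target genes of FGF-ERK signalling were set beside the ligands. They were read as RNA only, and ERK activity was not measured. Of 17 tested, 4 were lower in 2i than in CH, where 1.67% of all genes were called lower. The 4 were the inhibitors Spry4, Dusp4 and Dusp6 and the immediate early gene Egr1. With the block 7 were lower, beside 534 of 16413 genes, and with DESeq2 7 were lower. Egr1 was 152 ± 14.6 CPM in CH and 1.26 ± 0.443 in 2i (SD, n = 3), a log2 fold change of -6.93 (SE 0.28, adjusted p = 9.75e-07 by edgeR). Dusp6, which dephosphorylates ERK, was 85.1 ± 6.36 CPM in CH and 24.4 ± 3.94 in 2i (SD, n = 3), with -1.80 (SE 0.14, adjusted p = 9.43e-05 by edgeR). Fgf4 rose in this comparison, and Fgf8 fell with these 4 genes. The median of the 17 was -0.91 beside -0.0033 for all genes. In Fgf2/Activin, where Fgf2 protein was supplied, 2 of 17 were higher than in DMSO, beside 0.902% of all genes. They were Egr1 (1.45, adjusted p = 0.00272 by edgeR) and Il17rd (1.46, adjusted p = 0.0019 by edgeR), and Dusp6 was not called. Between 2i and Fgf2/Activin 8 were lower and 1, Lrig1, was higher, beside 14.4% and 9.13% of all genes. Between CH and DMSO 3 were higher (Spry2, Il17rd and Egr1) and 3 lower (Spred3, Dusp4 and Dusp5). Of all genes 7.51% were higher and 10.2% lower there. In Esrrb delta/delta cells, where Fgf4 fell and Fgf5 and Fgf8 rose, Spred3, Dusp4 and Dusp5 were higher and Spry2 and Spry4 lower. Between the Esrrb groups 12.8% of all genes were higher and 3.87% lower. Spry4 was 67.0 ± 1.98 CPM in Esrrb fl/fl and 28.2 ± 5.20 in Esrrb delta/delta (SD, n = 3).

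Markers of the primitive streak, summed over their list, were like Fgf8 higher in CH than in DMSO or 2i. Both were also higher in Esrrb delta/delta than in Esrrb fl/fl. In 2i, however, T was 91.0 ± 19.7 CPM against 0.468 ± 0.118 in DMSO (SD, n = 3). Fgf8 was 0.188 ± 0.0427 CPM in 2i and 0.184 ± 0.143 in DMSO (SD, n = 3). The 10 genes of that list summed to between 466 and 700 CPM in CH, 10.4 to 15.9 in DMSO, 88.0 to 123 in 2i and 16.0 to 29.9 in Fgf2/Activin. They summed to between 477 and 602 CPM in Esrrb delta/delta and 80.9 to 102 in Esrrb fl/fl. T (brachyury), the most abundant of them in all groups with CH, was 534 ± 118 CPM in CH, 91.0 ± 19.7 in 2i, 402 ± 77.1 in Esrrb delta/delta and 42.9 ± 5.58 in Esrrb fl/fl (SD, n = 3). In Fgf2/Activin T was 0.576 ± 0.318 CPM (SD, n = 3), and Fgf8 was at 3.96 ± 1.73 CPM (SD, n = 3). Of the list, 4 genes were higher and Eomes lower in CH than in DMSO, 4 were lower in 2i than in CH, and 5 of 7 tested were higher in Esrrb delta/delta. In the same comparisons 7.51% of all genes were higher and 10.2% lower, 1.67% were lower, and 12.8% were higher. Gsc did not exceed 3 counts in DMSO, CH, Fgf2/Activin or either Esrrb group, and Mesp1 did not exceed 3 counts in any E14 group. The part of these markers' cell type in the Fgf8 values was not tested.

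**Figure D4:**
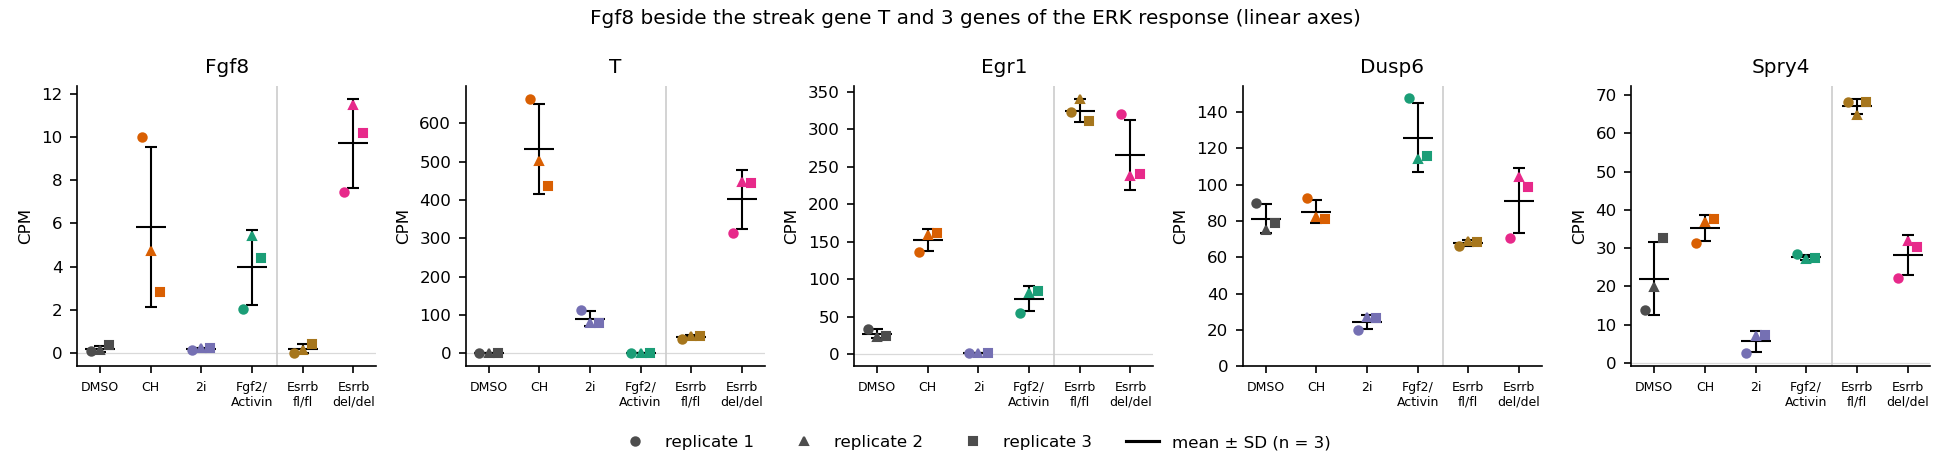
CPM of Fgf8, the streak gene T and the ERK response genes Egr1, Dusp6 and Spry4 in each sample (linear axes with separate scales); symbols give the replicate number and bars the mean ± SD of 3 samples, and del/del stands for Esrrb delta/delta. Fgf8 and T are both high in CH and Esrrb delta/delta, Fgf8 but not T is raised in Fgf2/Activin, and the 3 ERK genes are lowest in 2i.

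For members with enough counts, the genes with the most similar profile over the 12 E14 samples were named by the smallest root-mean-square (RMS) difference of centred log2(CPM + 1) values, out of 12375 genes. Fgf5 was closest to the transcription factor genes Sall2 and Pou3f1, at RMS differences of 0.53 and 0.58, where Fgf5 itself varied by 3.01 about its mean. Sall2 was 141 ± 50.8 CPM in DMSO and 146 ± 15.0 in Fgf2/Activin, and 2.38 ± 1.06 in CH and 1.92 ± 0.899 in 2i (SD, n = 3). Fgf8 was closest to Cdkn1c (0.45) and Cx3cl1 (0.47), and Fgf17 to Abhd2 (0.20) and Slc5a6 (0.24). Fgf4 had Nfic (0.29) and A930004D18Rik (0.31) as its nearest genes, Fgfr1 had Pm20d2 and Evc2 (both 0.13), and Fgfr2 had Gm14165 (0.56) and Mbp (0.62). About their own means Fgf8 varied by 1.17, Fgf17 by 0.94, Fgf4 by 0.59, Fgfr1 by 0.38 and Fgfr2 by 1.14. Each difference is to be read beside the spread of its member.

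Some ligands lie side by side in the genome. Fgf3, Fgf4 and Fgf15 follow each other on chromosome 7 of GRCm38, with Fgf4 2930 bases from Fgf3 and 31287 bases from Fgf15. Their E14 levels ran in different orders, with Fgf4 lowest in CH and Fgf15 lowest in CH and 2i, whose ranges overlapped for Fgf15. Fgf3, at 0.545 to 1.58 CPM on average in the E14 conditions, was not called in any of the 4 E14 comparisons. The nearest protein-coding genes were taken outside the annotated span of each member. The Fgfr2 span holds other protein-coding genes, so those named for it, Wdr11 and Tex36, lay 526712 and 463673 bases away. Of the 18 genes taken in this way, 14 were tested in the E14 cells. Dmtn was higher and Cfap299, 52273 bases from Fgf5, was lower in CH than in DMSO and in 2i than in Fgf2/Activin. Of all genes 17.7% and 23.5% were called in these comparisons, in that order. Of 12 tested in the Esrrb cells 1 was called, where 16.7% of all genes were called. This was Fbxw4, 76485 bases from Fgf8, with a log2 fold change of 1.04 (SE 0.17, adjusted p = 0.000841 by edgeR).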

How the data were processed

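The authors aligned directional poly(A) libraries to mm10 with TopHat2, used HTSeq in unstranded mode on Ensembl genes, and deposited the raw whole-number counts of 49671 genes. Aligner and counter come from the study's methods; the Ensembl release and the counting mode for overlapping genes are not given in the sources used here. Samples were grouped by the labels. Of the identifiers, 49412 matched GENCODE M21 (GRCm38), which gave symbols, positions and exon lengths. Low counts were filtered with filterByExpr (minimum count 10), scaled by TMM, and tested with edgeR 4.0.16 (glmQLFit, glmQLFTest) in R 4.3.3, with Benjamini-Hochberg adjustment over all genes. The 12 E14 samples formed one fit (16413 genes) and the 6 Esrrb samples another (14893 genes). Members, lists and named-gene rules were chosen with earlier results of these data known. Correlations of deviations from group means ranged from 0.383 to 0.825 for same-numbered samples and from -0.775 to 0.697 for other numbers. Replicate 1 stood apart from 2 and 3 across groups, but 2 and 3 were not paired in every comparison. CH replicate 2 was closer to DMSO replicate 3 (0.548) than to DMSO replicate 2 (0.449). By contrast, 2i replicate 2 was closer to CH replicate 2 (0.716) than to CH replicate 3 (0.635). Alternatives were the replicate block, DESeq2 1.42.0 (size factors; Wald test), total counts, no filter, only the samples compared, and each replicate left out. Leaving out replicate 1 of all groups together was chosen after seeing the data. Likeness used members and genes averaging 50 or more counts, with 2 genes named per member (that of Fgf15 is not reported here); from each list up to 4 called genes with the highest mean CPM could be named. The tests were checked on simulated data. Promoters were matched by symbol for 6 of the 10 members. Sequencing depth sets the precision of genes with few counts.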

Additional observations from a re-analysis of the deposited data

How the results depend on the processing

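Of the members' fold changes, 506 kept their direction and their side of the thresholds under the alternatives, 32 lost their call, 13 gained one and 10 changed sign. With the samples of the 2 groups fitted alone, 1 member was called between 2i and CH and 1 between Fgf2/Activin and DMSO, and leaving out 1 replicate gave 0 to 1 called in the latter. Genes called over the whole table between 2i and CH went from 326 to 672 with the replicate block, 605 with DESeq2's Wald test, 100 with the 6 samples alone, and 144 to 275 with 1 replicate left out. They were 768 without replicate 1 in all groups, an alternative chosen after seeing the data. Between Fgf2/Activin and DMSO they went from 205 to 424, 379, 87, 112 to 171 and 499 under the same settings. The block changed the calls of Fgf15 and Fgfr4 between CH and DMSO and of Fgf5 between Fgf2/Activin and DMSO, given above, and of no other member. Signs changed where values were near 0. These were Fgf17 between 2i and CH (-0.1735 to 0.0442 with 1 replicate left out), Fgf4 between 2i and Fgf2/Activin (-0.0969 to 0.003) and Fgf15 (-0.393 to 0.667) and Fgfr4 (-0.157 to 0.183) in the Esrrb cells, the latter also at -0.0696 without replicate 1 in all groups. The cause was not tested. The longest transcript in place of all exons moved 22 of 60 levels per kilobase by more than the spread between replicates. With 1 replicate left out, the remaining pair was assumed to vary like the other groups.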
